A study of Homo sapiens with 44 samples.

Results

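The genes described here encode the core proteins of small nucleolar ribonucleoproteins, the RNA-protein particles that modify and process ribosomal RNA in the nucleolus. They are a list of names, no measured value being part of the rule, made with earlier results of these data known: FBL, NOP56, NOP58 and NHP2L1 of the box C/D particles, RRP9 of the U3 particle, DKC1, NHP2, NOP10 and GAR1 of the box H/ACA particles, and the nucleolar chaperone NOLC1. These are 10 of 23367 gene rows in the deposited counts, and all 10 were among the 14534 genes that passed the filter on low counts. RNA-seq was done on IMR5/75, a human neuroblastoma cell line with amplified MYCN that carries a tetracycline-inducible short hairpin RNA against MYCN. Cells were held at the G1/S border by 18 h of thymidine and collected at 0, 3, 6, 8, 10, 12, 14, 16, 18, 20 and 22 h after release. Each of the 11 times had 2 biological replicates with tetracycline, called Tet plus here, and 2 without, called Tet minus, which gave 44 libraries in 22 groups. All groups therefore share the cell line, the hairpin construct and the thymidine block. No group with a control hairpin, or with tetracycline and no hairpin, was analysed here, so an effect of the hairpin and one of tetracycline itself cannot be told apart.

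In a box C/D particle the guide RNA pairs with ribosomal RNA and positions fibrillarin, which adds a methyl group to the sugar of the paired base. In a box H/ACA particle the guide RNA positions dyskerin, which turns a uridine into pseudouridine. The U3 particle, a box C/D relative, is needed for the cleavages that release the small subunit RNA. The box H/ACA proteins are also part of telomerase, and several of the genes here carry guide RNAs in their own introns. MYC family proteins are known to bind the sequence CACGTG, the E-box, and genes of ribosome production are among their known targets.

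The promoters with a CACGTG are shown because the series lowers a factor that binds this sequence. RefSeq promoter sequences (GRCh38.p14, 250 bases before to 50 after the start site) were found for 7 of the 10 genes, not for NOP58, NHP2L1 or NOLC1. They are written 5′ to 3′ on the gene's strand, with CACGTG in capitals. This motif reads the same on both strands.
RRP9 (chr3:51941855-51942154, minus strand): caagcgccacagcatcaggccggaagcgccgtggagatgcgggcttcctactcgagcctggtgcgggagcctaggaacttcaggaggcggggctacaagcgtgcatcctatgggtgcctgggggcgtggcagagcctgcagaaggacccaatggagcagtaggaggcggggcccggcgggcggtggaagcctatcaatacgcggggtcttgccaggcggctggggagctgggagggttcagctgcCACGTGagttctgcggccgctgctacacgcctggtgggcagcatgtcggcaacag
FBL (chr19:39846330-39846629, minus strand): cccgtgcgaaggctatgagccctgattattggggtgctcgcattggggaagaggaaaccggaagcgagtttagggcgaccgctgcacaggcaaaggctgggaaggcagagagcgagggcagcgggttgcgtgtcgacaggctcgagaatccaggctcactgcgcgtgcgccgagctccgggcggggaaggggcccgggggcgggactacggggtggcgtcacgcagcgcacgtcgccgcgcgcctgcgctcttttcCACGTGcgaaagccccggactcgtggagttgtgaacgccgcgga
NOP10 (chr15:34343087-34343386, minus strand): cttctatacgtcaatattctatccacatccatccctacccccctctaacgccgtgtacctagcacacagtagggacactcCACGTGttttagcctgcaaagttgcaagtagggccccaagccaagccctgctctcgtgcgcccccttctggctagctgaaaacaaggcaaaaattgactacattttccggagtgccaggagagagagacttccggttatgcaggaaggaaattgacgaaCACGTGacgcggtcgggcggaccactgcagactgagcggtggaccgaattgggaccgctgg
GAR1, the downstream of its listed starts (chr4:109815512-109815811, plus strand): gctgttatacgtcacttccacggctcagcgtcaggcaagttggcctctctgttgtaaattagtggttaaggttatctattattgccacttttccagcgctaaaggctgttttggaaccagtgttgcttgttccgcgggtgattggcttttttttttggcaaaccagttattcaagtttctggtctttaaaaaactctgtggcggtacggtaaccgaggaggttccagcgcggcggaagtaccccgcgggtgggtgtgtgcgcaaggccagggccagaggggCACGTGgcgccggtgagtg
The first base of the motif lay 5 bases before the start in RRP9, 170 and 11 bases before it in NOP10, and at position 7 after it in FBL and 32 in GAR1. No CACGTG was present in these windows of NOP56, DKC1, NHP2 or the upstream start of GAR1. Of all 35116 RefSeq promoters of this length, 7.26% held CACGTG. Counted per gene, 8.77% of 27305 genes had it in at least 1 promoter. The related CACGCG, searched on both strands as CACGCG or CGCGTG, was present in the windows of FBL and NHP2. It was present in 11.4% of all promoters and, counted per gene, in 13.5% of genes. NOP10, with 2 copies, had the smallest difference between arms of the 10 genes at 0 to 14 h, and RRP9, with 1, the largest. A match describes letters in a window and not a bound site.

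Small nucleolar RNAs from introns of these genes are shown because their counts are compared with those of the host mRNA further on. The sequences come from GENCODE v29 (GRCh38), with the C box TGATGA, the D box CTGA or the ACA box in capitals.
SNORD110, intron of NOP56 (chr20:2654212-2654286): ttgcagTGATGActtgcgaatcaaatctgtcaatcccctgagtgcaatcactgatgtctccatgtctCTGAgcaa
SNORA51, intron of NOP56 (chr20:2655067-2655198): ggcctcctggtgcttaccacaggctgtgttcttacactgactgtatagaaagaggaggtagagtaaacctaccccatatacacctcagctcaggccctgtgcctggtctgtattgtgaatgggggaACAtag
SNORD11, intron of NOP58 (chr2:202293051-202293134): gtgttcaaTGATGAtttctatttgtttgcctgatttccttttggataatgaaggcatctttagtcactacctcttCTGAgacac
SNORA56, in DKC1 (chrX:154774998-154775126): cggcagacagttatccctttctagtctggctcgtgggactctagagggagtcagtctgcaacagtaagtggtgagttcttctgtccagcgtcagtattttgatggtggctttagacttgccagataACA

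The libraries held between 10.9 and 25.3 M gene counts (M, mega), with a median of 20.1 M. At 0 to 14 h the same-numbered libraries of both arms shared a sequencing lane, so the arms can be compared within lanes. From 16 h on, Tet plus samples have differently built titles and ran on different lanes from Tet minus. They were also shallower (10.9 to 19.8 M against 14.0 to 23.8 M), and 0.0543 to 0.376% of their counts fell on the ERCC spike-in RNAs, against 1.13 to 3.43% in Tet minus. No label used here names a sequencing run. A separate run of these libraries is inferred from titles, lanes and ERCC shares, and is called the sequencing run below. Arm and sequencing run cannot be told apart at these 4 times, and every value for 16 to 22 h below carries that limit. Of 8 neuroblastoma markers, 7 had a median above 1 CPM. The exception was TH, with a median of 0.053. The immune marker CD3E had no count in any library. Of 4 fibroblast markers, LUM (median 13.6 CPM) and PDGFRB (5.31 CPM) were detected while COL1A2 and DCN had medians of 0 and 0.0768 CPM. The fibroblast sum ranged from 9.71 to 45.4 CPM in Tet plus and from 10.3 to 42.7 CPM in Tet minus at 0 to 14 h.

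MYCN, the target of the hairpin, had between 938 and 1213 CPM in Tet plus at 0 to 14 h (median 1002, n = 14 libraries) and between 970 and 1479 CPM in Tet minus (median 1228, n = 14). CPM is the usual depth-scaled count, here with TMM-scaled library sizes. It was lower in Tet plus in all 14 same-numbered pairs, by 0.27 on the log2 scale (log2 fold change -0.27, SE 0.046, edgeR quasi-likelihood adjusted p = 2.71e-05). At 0 h the MYCN difference was -0.08 (adjusted p = 0.858). Here and below, log2 fold changes are Tet plus over Tet minus, and the values for 0 to 14 h average the differences at 7 times with equal weight, with libraries of different times treated as independent.

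At 0 to 14 h, 9 of the 10 small nucleolar RNP genes were lower in Tet plus and none was higher. The median difference of the 10 was -0.52 on the log2 scale, against 0.01 for all genes tested. An adjusted p under 0.05 (Benjamini-Hochberg over 14534 genes) was found with a lower level in Tet plus for 21.3% of all genes and with a higher one for 20.1%. In these 9 genes the arms were fully separated at each of the 7 times, both Tet plus replicates being below the Tet minus pair, which held for 4.12% of all genes. Tet plus was lower in 14 of 14 same-numbered pairs for each of them. When the counts were scaled to the ERCC spike-ins instead, all 10 differences stayed negative, and the median of all genes moved to 0.13. With this scaling none passed the edgeR test (1 had an unadjusted p under 0.05). At these times ERCC took 0.806 to 4.25% of counts in Tet minus and 0.736 to 5.85% in Tet plus. Replicates of a group also differed in this share, as at 10 h in Tet plus (1.84 and 5.85%). Its part in the loss of calls was not tested.

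**Figure D1:**
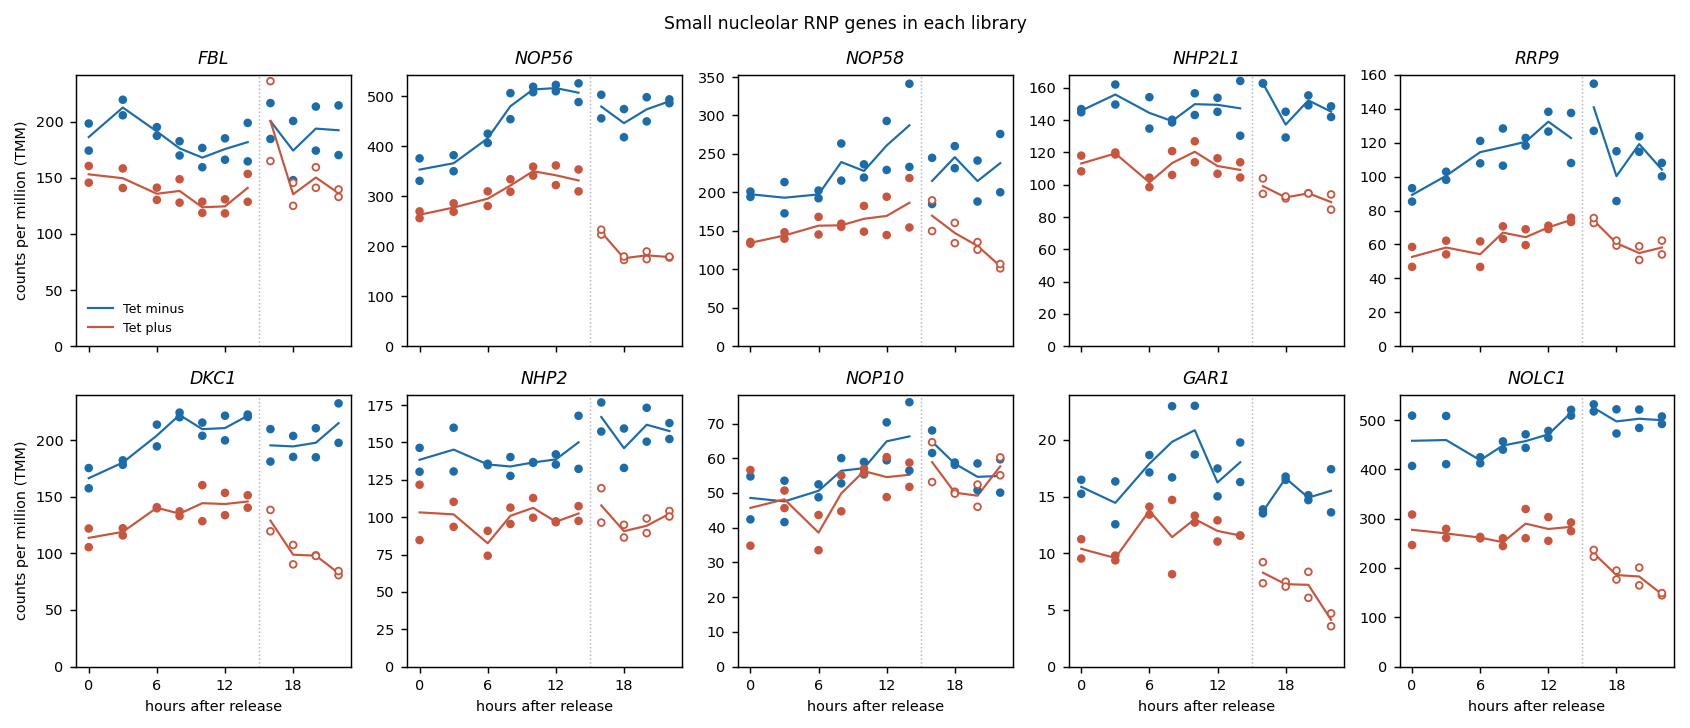
CPM (TMM-scaled) of the 10 genes against hours after release, in Tet minus (blue) and Tet plus (red). Each point is 1 library, and lines join the means of 2 libraries. Open points right of the dotted line are Tet plus libraries with the other title form, inferred to be of another sequencing run. Within single times of 0 to 14 h the arms overlap in NOP10 only.

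Among the box C/D proteins, the scaffold pair NOP56 and NOP58 differed to about the same degree. NOP56 had 256 to 362 CPM in Tet plus (median 310) and 331 to 526 CPM in Tet minus (median 471). Part of this spread is its course over time, and the arms did not overlap at any of the 7 times. Its log2 fold change was -0.52 (SE 0.0369, adjusted p = 1.72e-11). NOP58, the partner that binds beside it on the guide RNA, had 133 to 219 CPM in Tet plus (median 152) and 173 to 341 CPM in Tet minus (median 217). The log2 fold change of NOP58 was -0.52 (SE 0.0757, adjusted p = 4.23e-06), with the highest library of each arm at 14 h, replicate 2.

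FBL, the methyltransferase fibrillarin, had 118 to 161 CPM in Tet plus (median 136) and 159 to 219 CPM in Tet minus (median 184). Only the highest Tet plus library, at 0 h, reached the lowest Tet minus library, at 10 h. Its difference was -0.42 (SE 0.0608, adjusted p = 3.77e-06). NHP2L1, now named SNU13, binds the kink-turn of box C/D RNAs and also of U4 spliceosomal RNA. It had 98.5 to 127 CPM in Tet plus (median 114) and 130 to 164 CPM in Tet minus (median 146), with no overlap across all 28 libraries. The log2 fold change of NHP2L1 was -0.39 (SE 0.0393, adjusted p = 1.11e-08).

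RRP9, which binds U3 RNA, had the largest difference of the 10 at 0 to 14 h. It had 46.7 to 75.7 CPM in Tet plus (median 62.8) and 85.3 to 138 CPM in Tet minus (median 113). Every Tet plus library lay below every Tet minus library. RRP9 differed by -0.85 (SE 0.0576, 95% interval -0.97 to -0.74, adjusted p = 7.82e-12), a change of -44.7%.

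Of the box H/ACA proteins, 3 of 4 were lower. DKC1, the pseudouridine synthase dyskerin, had 105 to 160 CPM in Tet plus (median 135) and 157 to 224 CPM in Tet minus (median 209). Its log2 fold change was -0.59 (SE 0.0446, adjusted p = 6.87e-11). NHP2, which binds the guide RNA beside dyskerin, had 74.2 to 122 CPM in Tet plus (median 97.3) and 128 to 168 CPM in Tet minus (median 136), with no overlap. NHP2 differed by -0.50 (SE 0.0575, adjusted p = 1.09e-07). GAR1, which contacts dyskerin and helps the modified RNA to be released, was the least abundant of the 10, with 8.15 to 14.7 CPM in Tet plus (median 11.6) and 12.6 to 23.0 CPM in Tet minus (median 16.9). The ranges of GAR1 overlapped across times but not within any time, and its difference was -0.59 (SE 0.0803, adjusted p = 1.4e-06).

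NOP10, a small protein that bridges dyskerin and NHP2, did not pass the test. It had 33.5 to 60.3 CPM in Tet plus (median 51.2) and 41.6 to 76.1 CPM in Tet minus (median 55.1), and the arms overlapped at 6 of the 7 times, all but 6 h. Its log2 fold change was -0.17 (SE 0.0716, 95% interval -0.31 to -0.02, adjusted p = 0.0631), with Tet plus lower in 11 of 14 same-numbered pairs. With the replicate number as a block, the value was -0.17 with an adjusted p of 0.0337. Without the Tet plus 0 h replicate 1 library, which at 56.6 CPM was the only Tet plus library of 0 h above the Tet minus pair (54.8 and 42.4 CPM), the value was -0.22 with an adjusted p of 0.00866, and the call was also gained on leaving out replicate 2 of Tet minus at 0, 3 or 14 h, replicate 1 of Tet plus at 6 or 12 h, or replicate 2 of Tet plus at 8 h.

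NOLC1, a phosphoprotein that shuttles to Cajal bodies and carries both classes of particle, differed by -0.75 (SE 0.0477, adjusted p = 2.37e-12). It had 245 to 320 CPM in Tet plus (median 262) and 407 to 521 CPM in Tet minus (median 461). The highest Tet plus library stood well below the lowest Tet minus library.

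**Figure D2:**
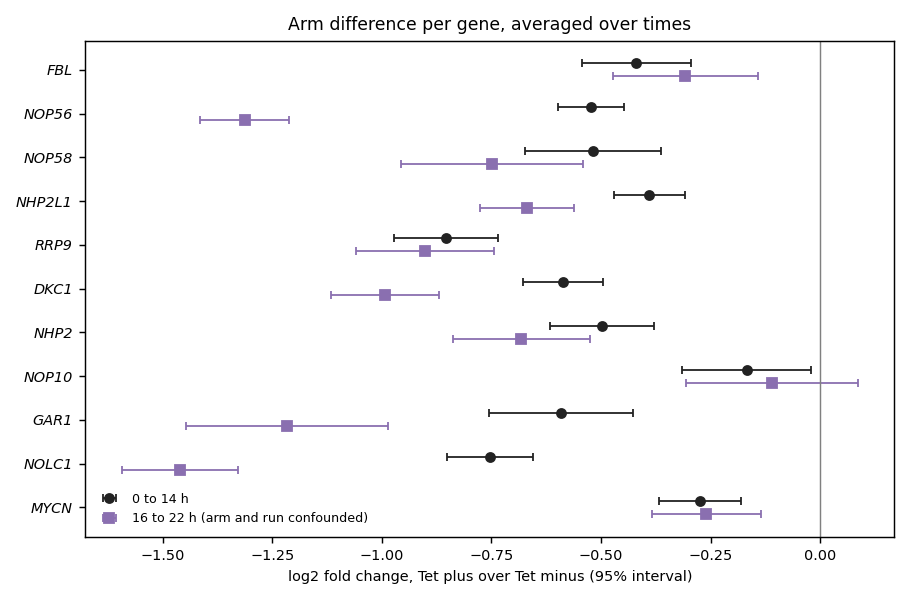
Log2 fold change, Tet plus over Tet minus, of each gene and of MYCN, averaged over 0 to 14 h (black circles) and over 16 to 22 h (purple squares, arm and sequencing run confounded), with 95% intervals. Zero is the vertical line, and of all intervals shown only that of NOP10 at 16 to 22 h (-0.31 to 0.09) crosses it.

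The differences were of like size in the separate lane sets. At 0 to 6 h 9 of 10 genes were lower, against 10.5% of all genes, with RRP9 at -0.87 and NOP10 at -0.15 (adjusted p = 0.366). At 8 to 12 h the same 9 were lower, against 11.7% of all genes, with RRP9 at -0.88 and NOP10 at -0.15 (adjusted p = 0.366). This split by lanes was added after the data were seen.

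At 0 h, before release from the block, 4 genes passed while MYCN itself did not. NOLC1 had 247 and 309 CPM in Tet plus and 407 and 509 CPM in Tet minus, a difference of -0.72 (edgeR adjusted p = 0.00274). RRP9 had 58.5 and 46.8 CPM in Tet plus and 93.2 and 85.3 CPM in Tet minus, a difference of -0.76 (adjusted p = 0.00997). DKC1 differed by -0.55 (adjusted p = 0.015) and NOP56 by -0.43 (adjusted p = 0.0226). A lower level with an adjusted p under 0.05 was found at 0 h for 1% of all genes. With the replicate block 7 of the 10 passed at 0 h, NOP58, NHP2L1 and GAR1 being added. Here and below, shares of all genes are those of the fit without the block. Calls that the block added therefore have no share of all genes beside them. Each of the 4 calls at 0 h was lost without some single library, and without the Tet minus 0 h replicate 2 library none of the 10 passed.

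The number of genes that passed at a single time was 4 at 0 h, 5 at 3 h, 6 at 6 h, 5 at 8 h, 4 at 10 h, 5 at 12 h and 6 at 14 h, all lower in Tet plus. The shares of all genes called lower at 3 to 14 h were 1.7%, 4.44%, 2.06%, 2.04%, 2.57% and 3.34%. With the replicate block the counts were 8 at 10 h (FBL, NOP58, NHP2L1 and GAR1 added) and 8 at 12 h (FBL, NOP58 and NHP2 added). The block also added FBL and NHP2 at 3 h, FBL at 6 h, NOP58 at 8 h, NOP58 and GAR1 at 14 h and FBL at 20 h. NOP56, RRP9, DKC1 and NOLC1 passed at each of the 11 times, NHP2L1 at 8, NHP2 at 6, GAR1 at 5, NOP58 at 3 and FBL at 1. Each single-time comparison sets 2 libraries against 2. NOLC1 kept its call whichever of the 4 libraries was left out at 8 of the 11 times, NOP56 at 7, RRP9 at 6 and DKC1 at 5. The same held at 4 of the 8 times at which NHP2L1 passed, 3 of 5 for GAR1, 2 of 6 for NHP2, 1 of 3 for NOP58 and 0 of 1 for FBL. Without 1 library the count fell to as few as 1 at 3 h (without Tet minus replicate 2), 2 at 6 h (without Tet plus replicate 2), 2 at 8 h and at 10 h (without Tet minus replicate 2), 3 at 12 h (without Tet minus replicate 2) and 2 at 14 h (without Tet plus replicate 1).

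**Figure D3:**
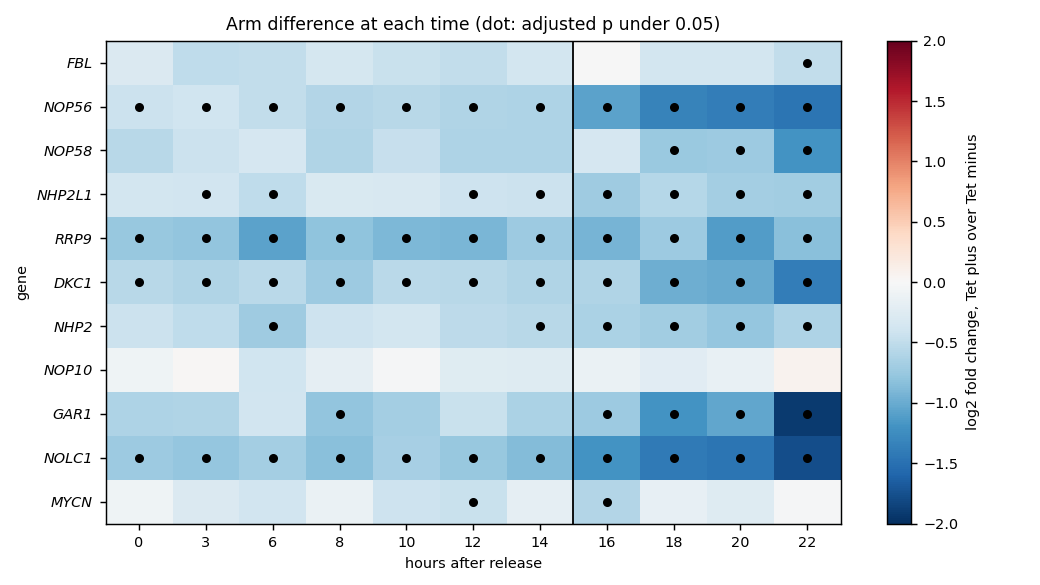
Log2 fold change, Tet plus over Tet minus, of each gene (rows) at each hour after release (columns), from -2 (blue) to 2 (red). A dot marks an adjusted p under 0.05, the line separates the times at which arm and sequencing run are confounded, and the rows of NOP56, RRP9, DKC1 and NOLC1 have a dot at all 11 times.

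The difference between arms was not shown to change over 0 to 14 h. In the test of arm by time, none of the 10 genes passed in edgeR (adjusted p = 1 for each, 0 with an unadjusted p under 0.05), and 0.0138% of all genes did. None had an adjusted p under 0.05 with the replicate block either, where the lowest was 0.948.

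The course itself passed the test for NOP56 in both arms. In Tet minus its mean rose from 353 CPM at 0 h to 516 CPM at 12 h (adjusted p = 0.000117 over the 7 times), and 14.5% of all genes passed this test. With the replicate block NOP58, RRP9 and DKC1 passed as well in Tet minus, with adjusted p-values of 0.0193, 0.0356 and 0.00288. In Tet plus the mean of NOP56 rose from 263 CPM at 0 h to 350 CPM at 10 h (adjusted p = 0.0169), a test that 10.4% of all genes passed. DKC1 also passed in Tet plus with the block (adjusted p = 0.0103). The call of NOP56 in Tet plus was lost without either 0 h library or without replicate 2 at 3, 6, 10 or 12 h, with adjusted p-values from 0.0504 to 0.0724.

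Within 0 to 14 h, RRP9 and DKC1 had their lowest mean at 0 h in both arms. RRP9 went from 89.2 CPM at 0 h to 132 CPM at 12 h in Tet minus and from 52.7 CPM at 0 h to 74.5 CPM at 14 h in Tet plus. DKC1 went from 166 CPM at 0 h to 222 CPM at 8 h in Tet minus and from 114 CPM at 0 h to 146 CPM at 14 h in Tet plus. Within the same times FBL was lowest at 10 h in both arms, at 168 and 124 CPM, and its course did not pass (adjusted p = 0.728 in Tet minus and 0.707 in Tet plus). Between 0 and 6 h, no gene of the 10 passed in edgeR or DESeq2 in either arm (3 had an unadjusted p under 0.05 in Tet minus and 2 in Tet plus), where 1.86% of all genes rose and 0.489% fell in Tet minus, and 1.78% rose and 0.729% fell in Tet plus. With the replicate block DKC1 was higher at 6 h than at 0 h, by 0.30 in Tet minus (adjusted p = 0.0488) and 0.31 in Tet plus (adjusted p = 0.034). Between 8 and 12 h none passed in either arm with edgeR or DESeq2, and 0 had an unadjusted p under 0.05. Of all genes, 0.0688% rose and 0.764% fell over this interval in Tet minus, and 0.0344% rose and 0.186% fell in Tet plus. Over the 7 group means, the Pearson r of the 45 pairs of these genes ranged from -0.788 to 0.977 (median 0.324) in Tet minus. In Tet plus it ranged from -0.879 to 0.925 (median 0.268). These r describe means of 2 libraries that the pairs share. Most of the courses did not pass their own test, so low r can come from spread between libraries. Whether courses differ between the genes was not tested.

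At 16 to 22 h the same 9 genes were lower in Tet plus relative to the rest of the transcriptome, and scaled to the ERCC spike-ins all 10 were higher, as the median of all genes moved by 4.40. Differences relative to that median keep the sign of the TMM values. The median of the 10 was -0.82, against 0.02 for all genes, and 26.8% of all genes were called lower and 26.3% higher. For 7 of the 10 the arms were separated in this way at all 4 times, which held for 13.6% of all genes.

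NOLC1 had 145 to 237 CPM in Tet plus (median 186) and 473 to 532 CPM in Tet minus (median 513). Its TMM difference was -1.46 (SE 0.0642), and -1.46 relative to the median of all genes under ERCC scaling. NOP56 had 172 to 233 CPM in Tet plus (median 179) and 418 to 503 CPM in Tet minus (median 480), a difference of -1.31 (SE 0.0496). For these 2 genes the arms stood far apart in every library. GAR1 differed by -1.22 (SE 0.112) and DKC1 by -0.99 (SE 0.0597). RRP9 was at -0.90, NOP58 at -0.75, NHP2 at -0.68 and NHP2L1 at -0.67. FBL was at -0.31 (adjusted p = 0.00221), with arms that overlapped at 16 h, where Tet plus had 165 and 236 CPM and Tet minus 185 and 217 CPM. NOP10 was at -0.11 (adjusted p = 0.342).

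For 5 genes the late difference between arms was larger than the early one by its own test. The late minus early difference was -0.79 for NOP56 (adjusted p = 7.23e-10), -0.71 for NOLC1 (2.29e-07), -0.62 for GAR1 (0.00151), -0.41 for DKC1 (0.000219) and -0.28 for NHP2L1 (0.00263). A late minus early value below 0 with an adjusted p under 0.05 was found for 12.3% of all genes, whatever the sign of their early difference. MYCN did not pass this test, with a late minus early value of 0.01 (95% interval -0.14 to 0.17, adjusted p = 0.931). Its late difference was -0.26, against -0.27 at 0 to 14 h. The single late times gave MYCN values from -0.59 (16 h) to -0.03 (22 h). Under ERCC scaling the late minus early difference was above 0 for all 10 genes, while the median of all genes was 4.27. RRP9, with a late minus early value of -0.05 (95% interval -0.24 to 0.15), and FBL, with 0.11 (-0.10 to 0.32), did not pass. The counts of genes lower at single late times were 7 at 16 h, 8 at 18 h, 8 at 20 h and 9 at 22 h, against 14%, 11.2%, 13.7% and 16.3% of all genes. Without the Tet minus 18 h replicate 2 library the count at 18 h was 5.

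The sample descriptions give the hours of all libraries. For replicate 2 of Tet plus at 16 to 22 h the number that opens the title is not that hour, whereas for replicate 1 it is, and the replicates ran on separate lanes. Within Tet plus, 6 of the 10 genes fell between 16 and 22 h, against 4.65% of all genes. GAR1 went from 7.35 and 9.21 CPM at 16 h to 4.69 and 3.55 CPM at 22 h, a change of -1.01 (adjusted p = 0.00973). These are the smallest counts of the set, 97 and 174 reads at 16 h and 53 and 40 reads at 22 h. DKC1 went from 119 and 138 CPM to 80.7 and 84.3 CPM, a change of -0.64 (adjusted p = 0.00179). NOLC1 went from 223 and 237 CPM to 145 and 149 CPM, a change of -0.65 (adjusted p = 0.00272). NOP58 changed by -0.71 (adjusted p = 0.0322), FBL by -0.56 (0.0342) and NOP56 by -0.36 (0.0262). None of the 6 passed without the Tet plus 16 h replicate 2 library, 3 did without the 22 h replicate 1 library and 2 without the 22 h replicate 2 library.

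In Tet minus, none of the 10 passed between 16 and 22 h in edgeR or DESeq2 (1 had an unadjusted p under 0.05), where 0.475% of all genes fell and 1.17% rose. RRP9 was at -0.44 and passed with the replicate block (adjusted p = 0.0464). The difference between these changes, Tet plus minus Tet minus, was added after the data were seen and does not contain a constant difference between runs. It passed for DKC1 at -0.78 (SE 0.167, adjusted p = 0.00456), GAR1 at -1.19 (SE 0.318, adjusted p = 0.0184) and NOLC1 at -0.58 (SE 0.178, adjusted p = 0.037), and for 7.56% of all genes in that direction. NOP58 was at -0.85 (adjusted p = 0.0513) and NOP56 at -0.39 (adjusted p = 0.0664). The difference between these changes was computed with all libraries only, so its dependence on single libraries and other settings was not tested.

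Per kilobase of exon, the 10 genes spanned more than a factor of 10 in Tet minus at 0 to 14 h. The exon length is the union of coding transcripts in GENCODE v29. NOP56 had a median of 196 CPM per kb (137.8 to 219), FBL 158 (137.4 to 189) and NHP2 157 (148 to 194). The ranges of these 3 overlap. NOLC1 followed with 116 (103 to 131), NOP58 with 106, NOP10 with 99.4, RRP9 with 71.7, DKC1 with 67.8 and NHP2L1 with 58.5 CPM per kb. The ranges of RRP9, DKC1 and NHP2L1 overlap with those of their neighbours in this order. GAR1 stood apart at 13.4 CPM per kb (9.94 to 18.2). Among the box H/ACA proteins the median level per kb ran from 13.4 for GAR1 to 157 for NHP2. In Tet plus, NOLC1 moved from the fourth to the sixth place with a median of 66.0 CPM per kb, behind NOP10 with 92.4 and NOP58 with 74.1, and the ranges of NOLC1 and these genes overlap.

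**Figure D4:**
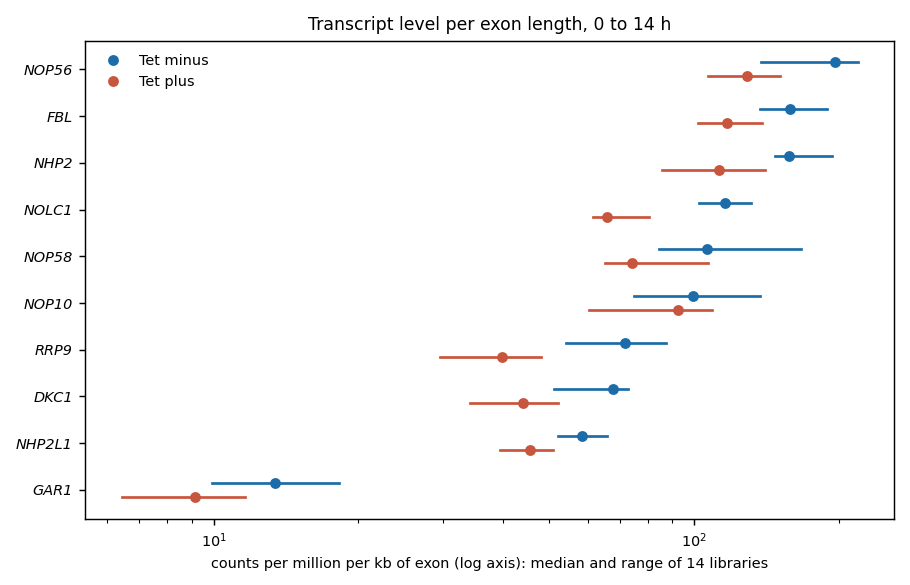
CPM per kb of exon (log axis) of the 10 genes at 0 to 14 h in Tet minus (blue) and Tet plus (red). Points are medians and lines the range of 14 libraries per arm, with GAR1 lowest at 13.4 and 9.15 CPM per kb.

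The introns of NOP56, NOP58 and DKC1 hold 10 small nucleolar RNAs with rows in the counts, of which 9 passed the filter and SNORD86 had no count in any library. SNORA56 overlaps an exon of a coding DKC1 transcript. Column kits of the kind used here retain short RNA poorly, and reads of an unspliced host transcript cannot be told apart from those of the small nucleolar RNA. The levels were low: SNORD110, the most abundant, had 1.91 to 4.49 CPM in Tet plus (median 2.89) and 1.90 to 6.20 CPM in Tet minus (median 4.36) at 0 to 14 h. All 9 values were negative at 0 to 14 h and 5 passed, which is to be read against the 21.3% of all genes called lower. SNORD110 was at -0.59 (SE 0.107, adjusted p = 7.49e-05) and SNORA51 at -0.50 (SE 0.123, adjusted p = 0.00175), beside -0.52 for their host NOP56. SNORD57, also in NOP56, was at -0.55 (adjusted p = 0.0166), which was 0.0514 without the Tet minus 0 h replicate 2 library. SNORD11 was at -0.82 (SE 0.195, adjusted p = 0.00133), beside -0.52 for its host NOP58. SNORA56 was at -0.85 (SE 0.236, adjusted p = 0.00489), beside -0.59 for its host DKC1. SNORD56, SNORD11B, SNORD70 and SNORA36A did not pass.

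At 16 to 22 h host and intronic RNA did not always go together. SNORA51 was higher in Tet plus by 0.42 (SE 0.159, adjusted p = 0.0275) while its host NOP56 was at -1.31. It had 2.76 to 6.67 CPM in Tet plus (median 4.20) and 2.11 to 4.21 CPM in Tet minus (median 3.61), so the arms overlapped. The late minus early value of SNORA51 was 0.93 (SE 0.201, adjusted p = 0.00137). SNORD57 was at -0.84 (adjusted p = 0.00898), SNORD56 at -1.75 (0.00852), SNORA56 at -1.02 (0.0205) and SNORD110 at -0.37 (0.0346), and all 4 were above 0 with ERCC scaling. Calls at 16 to 22 h were lost without any of 9 libraries for SNORD110, 8 for SNORA51, 5 for SNORA56 and 1, Tet minus 16 h replicate 1, for SNORD56. In the same libraries the rows named SNORA, SNORD or SCARNA took 0.935 to 2.41% of gene counts in Tet plus against 0.289 to 0.713% in Tet minus, and their part in these values was not tested.

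**Figure D5:**
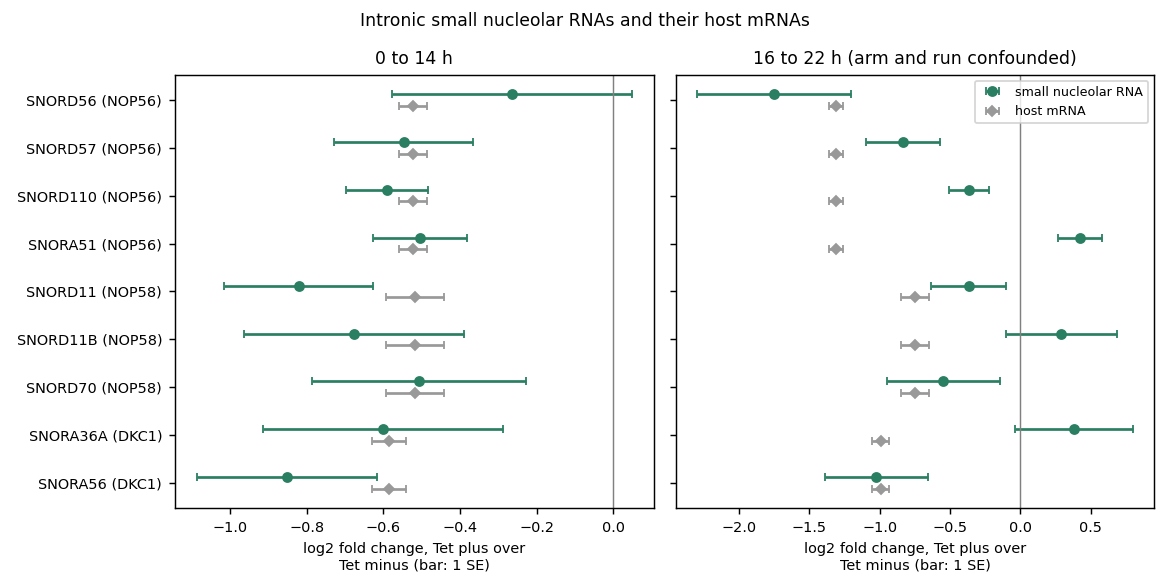
Log2 fold change, Tet plus over Tet minus, of 9 intronic small nucleolar RNAs (green circles) and of their host mRNA (grey diamonds) at 0 to 14 h (left) and 16 to 22 h (right, arm and sequencing run confounded). Bars are 1 SE, and at 16 to 22 h SNORA51 lies at 0.42 and its host NOP56 at -1.31.

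Genes that work with these proteins were taken from 4 lists, likewise made with earlier results known. Of 13 assembly factors, 8 were lower in Tet plus at 0 to 14 h and none higher, with a median of -0.28. Among them, RUVBL1, an ATPase of the assembly complex, was at -0.45 (adjusted p = 1.84e-07), NAF1, which GAR1 replaces in the maturing box H/ACA particle, at -0.61 (1.13e-06) and ZNHIT6, a box C/D assembly factor, at -0.35 (8.34e-06). Of 10 nucleolar partners, 10 were lower, with a median of -0.51. IMP4, a U3 particle protein, was at -0.81 (adjusted p = 2.09e-12), NOP2, a ribosomal RNA methyltransferase, at -0.64 (1.45e-10) and NAT10, a ribosomal RNA acetyltransferase, at -0.52 (1.35e-08). The median of all genes was 0.01 and 21.3% were called lower.

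Of 14 listed partners of NHP2L1 in the U4/U6 particle 13 were tested, 7 were lower and none higher, with a median of -0.17. PRPF4 was at -0.42 (adjusted p = 1.33e-05), PPIH at -0.32 (3.92e-06) and LSM2 at -0.31 (3.79e-06). Of 9 telomerase and shelterin genes, 2 were lower and 2 higher, with a median of -0.04, and these shares are near those of all genes (21.3% lower and 20.1% higher). TERT, the catalytic subunit, was at -1.52 (adjusted p = 1.63e-11), while TINF2 was at 0.17 (0.0178) and TEP1 at 0.68 (0.0232). The level of TEP1 was very low, with a mean of 0.532 CPM in Tet minus and 0.803 CPM in Tet plus (SE of its difference 0.239). The call of TINF2 was lost without replicate 1 of Tet plus at 6 or at 12 h, and that of TEP1 without Tet plus 6 h replicate 1. TERC, the box H/ACA RNA of telomerase, was at -0.04 (adjusted p = 0.749).

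The mean profile of the 10 genes over the 14 group means of 0 to 14 h was compared with that of 10080 genes. The highest Pearson r were those of IMP4 (0.990), LDHA (0.987), SLC5A6 (0.987), PDCD11 (0.986) and NLE1 (0.986). LDHA, a lactate dehydrogenase, was at -0.87 (adjusted p = 5.86e-12) and SLC5A6, a vitamin transporter, at -0.71 (6.47e-13) between arms. NLE1, a factor of large subunit maturation, was at -0.60 (3.7e-10) and PDCD11, a U3-associated protein, at -0.41 (2.51e-07). Among the 10 genes themselves, RRP9 was nearest to the mean profile (r = 0.984), and NOP10 (0.671) and FBL (0.764) were farthest. These r describe 14 means that mostly separate the arms, and the mean profile contains the 10 genes.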

How the data were processed

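RNA-seq counts of 44 libraries were used. The authors deposited raw read counts per gene. Per the submitters' processing notes, TopHat2 2.0.5, HTSeq and hg19 were used, and per the labels' protocols rRNA was depleted and ERCC RNA added. Neither the HTSeq version nor the annotation or strand setting was given in the sources used here. The 92 ERCC rows were left out of library sizes. Coordinates and sequences are from GRCh38 references and were not converted to hg19.

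In edgeR 4.0.16 (R 4.3.3), 14534 of 23367 genes passed filterByExpr. Counts were TMM-scaled and fitted with 1 mean per group (22 groups, 22 residual degrees of freedom, quasi-likelihood), and p-values were adjusted over all genes (Benjamini-Hochberg, threshold 0.05). SE is the log2 fold change over the square root of F. A test of 2 libraries against 2 borrows the spread of all groups, and where 1 is left out the lone library is assumed to vary like the others. The script was tested on simulated data, in which changes of genes with few counts were recovered less often at single times. Libraries held 10.9 to 25.3 M counts, and counting error was not separated from spread between replicates. Among the 10 genes counts were lowest for GAR1 (40 to 482 reads per library), and the small nucleolar RNAs also had few.

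Replicate numbers are in the labels. At each of the 11 times, replicates with the same number deviated together from their group means across arms (r at least 0.32 at 0 to 14 h, where they share a lane, and 0.205 at 16 to 22 h), so the numbers were taken to pair the arms. None of the 22 replicate pairs agreed within sampling noise, and pairs across groups were not compared. The labels call the replicates biological. Named are the 10 genes, MYCN, small nucleolar RNAs in their introns, up to 3 genes per list by adjusted p and the 5 genes of nearest profile. The genes and lists were chosen with earlier results of these data known. The alternatives were DESeq2 1.42.0, RLE factors, no filter, ERCC scaling, the replicate block, the 28 libraries of 0 to 14 h alone and each library left out.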

Additional observations from a re-analysis of the deposited data

Results flagged for a closer look

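For 5 genes the difference between arms at 16 to 22 h differed from that at 0 to 14 h by a test of the difference itself. The late minus early log2 values were -0.79 for NOP56 (edgeR quasi-likelihood adjusted p = 7.23e-10), -0.71 for NOLC1 (adjusted p = 2.29e-07), -0.62 for GAR1 (adjusted p = 0.00151), -0.41 for DKC1 (adjusted p = 0.000219) and -0.28 for NHP2L1 (adjusted p = 0.00263). Tet plus was lower in 8 of 8 late and 14 of 14 early same-numbered pairs for each of them. The same pair counts held for NOP58, RRP9, NHP2 and MYCN, which did not pass this test, so they do not set the 5 genes apart. For MYCN the late minus early value was 0.01 by the same test (adjusted p = 0.931). Arm and sequencing run cannot be told apart at 16 to 22 h, and with ERCC scaling each of the 5 values is above 0.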

How the results depend on the processing

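At 0 to 14 h the 9 calls and their directions held with DESeq2, RLE factors, no filter, the replicate block, the 28 libraries alone and each of 28 libraries left out (9 to 10 genes called), but ERCC scaling left 0 of 10. At 16 to 22 h 9 genes were called in each of the 16 fits that left out a library, and the late minus early test called 5 in each of 44. With ERCC scaling 10 of 10 genes were called higher at 16 to 22 h and 10 of 10 in the late minus early test. At 16 to 22 h the ERCC-scaled log2 values were 4.09 for FBL, 3.09 for NOP56, 3.65 for NOP58, 3.73 for NHP2L1, 3.52 for RRP9, 3.40 for DKC1, 3.71 for NHP2, 4.28 for NOP10, 3.19 for GAR1, 2.95 for NOLC1, 4.12 for MYCN, 2.30 for SNORD56, 3.43 for SNORD57, 4.11 for SNORD110, 4.10 for SNORD11, 4.02 for SNORD70 and 3.26 for SNORA56, with a median of 4.40 for all genes. In the late minus early test they were 3.49 for NOP56, 4.07 for NOP58, 3.98 for NHP2L1, 4.23 for RRP9, 3.88 for DKC1, 4.08 for NHP2, 3.68 for GAR1 and 3.58 for NOLC1, with a median of 4.27. These libraries held 0.0543 to 0.376% ERCC counts, and the cause was not tested.

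With the replicate block the genes called were 7 at 0 h, 8 at 10 h, 8 at 12 h, 4 for the course in Tet minus, 2 for the course in Tet plus, 1 for each arm at 6 against 0 h and 1 for Tet minus at 22 against 16 h. Beyond these and the single-time calls named above, the block changed only the call of NOP10 at 0 to 14 h (adjusted p = 0.0337). Without a filter 2 were called at 0 h, 3 at 3 h and 0 for the course in Tet plus (2 with an unadjusted p under 0.05), where more genes are tested. With a library left out the counts ranged from 0 (without Tet minus replicate 2, 8 with an unadjusted p under 0.05) to 2 at 0 h, 1 to 4 at 3 h, 2 to 6 at 6 h, 2 to 4 at 8 h, 2 to 4 at 10 h, 3 to 4 at 12 h, 2 to 6 at 14 h, 5 to 9 at 18 h, 0 to 1 for the course in Tet plus and 0 to 5 for the fall from 16 to 22 h in Tet plus, which was 3 as the difference between arms. Of the values of single genes among the 10, 2021 stayed on their side of the threshold when a library was left out, 89 lost the call and 10 gained it. No value that passed changed sign, but 49 values that did not pass did, over 35 results. Among the differences between arms these were NOP10 at 0, 3, 8, 10 and 22 h, FBL at 16 h and RRP9 late minus early. NOP10 at 0 h went from -0.08 to as much as 0.22 (without Tet plus 0 h replicate 2), and FBL at 16 h from -0.00029 to as much as 0.23 (without Tet plus 16 h replicate 1). FBL at 16 h was also above 0 with DESeq2, RLE factors and no filter. Depth limits GAR1, with as few as 40 reads in a library, and the small nucleolar RNAs.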
